A study of Rattus norvegicus with 9 samples.

Results

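Transforming growth factor beta (TGF-beta) signalling was described here through 10 genes: the ligands Tgfb1, Tgfb2 and Tgfb3, the receptors Tgfbr1, Tgfbr2 and Tgfbr3, and the latent binding proteins Ltbp1, Ltbp2, Ltbp3 and Ltbp4. They are 10 of the 36856 RefSeq genes with transcripts in the tables, and each was measured as the sum over its transcripts in every library. The family was chosen by its function but from results of these same libraries: Tgfb1 had stood among the clearest differences between ESW and Control, and Tgfb1 and Ltbp2 had been called in both ESW comparisons. The levels and folds of the 10 genes are therefore a description, with no p-value for any of them. The cells were H9c2(2-1), a wild-type clonal myoblast line from the heart of an embryonic BD1X rat, kept in DMEM with foetal bovine serum and antibiotics. There were 3 libraries each of cells given energized structured water (ESW), cells given control water (CW) and cells kept in ordinary growth medium (Control). Both waters were used at a dilution of 0.01 for 72 h and renewed with the medium every 24 h. The labels record neither a duration nor a medium renewal for Control, and do not say what distinguishes the waters in composition. Tgfb1 and all 4 latent binding proteins had higher read levels in the 3 ESW libraries than in any CW or Control library. After correction for transcript length, Ltbp1, Ltbp3 and Ltbp4 overlapped both other groups, and Tgfb1 and Ltbp2 did not. Tgfbr1 and Tgfbr3 overlapped between the groups on either scale. The share of all genes that separate in this way was not computed, so nothing is read from the number.

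TGF-beta is made as a precursor that furin cuts into the mature ligand and a propeptide, and the propeptide stays wrapped around the ligand and keeps it latent. Latent TGF-beta binding proteins (LTBPs) attach this complex to fibrillin and fibronectin in the matrix, from which integrins, thrombospondin and proteases can release the ligand. Released ligand binds the type II receptor kinase Tgfbr2, which activates the type I receptor kinase Tgfbr1, which in turn phosphorylates Smad2 and Smad3. These enter the nucleus with Smad4 and act on genes of collagen, elastin and the contractile cytoskeleton. In the heart the pathway is best known for turning fibroblasts into matrix-making myofibroblasts.

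The libraries held between 26748673 and 48574618 estimated reads, and 14706 genes were tested. Of the myoblast and skeletal muscle markers, 5 of 11 (Myod1, Myog, Des, Mef2c and Cdh15) were above 1 CPM (per-million read level) in every library, while Myf5 had 2 reads over all 9 libraries and Ckm 18. Of the cardiomyocyte markers, 2 of 10 (Gata4 and Tnnt2) passed that level, and Myh6 had 30 reads in all and Nkx2-5 had 6. Fibroblast markers passed it for 6 of 8 genes and blood cell markers for 0 of 12. Endothelial markers passed it for 2 of 10 (Flt1 and Egfl7), and epithelial markers for 1 of 6 (Krt8, at 49.2 to 64.6 CPM). On the first principal component of all genes (24.1% of the variance) the ESW libraries lay between -28.7 and -8.79 and the CW libraries between 15.4 and 16.5. Control replicates 2 and 3 lay at 7.08 and 12.3, but Control replicate 1, at -10.9, lay within the range of the ESW libraries. Some values without Control replicate 1 are therefore given below. The labels do not state that replicates are separate cultures, so the p-values rest on a spread between libraries that may be technical only. In bulk RNA, a change in the number of cells of one type and a change in RNA per cell cannot be told apart.

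The 300 bases around the RefSeq start of Tgfb1, Ltbp2 and Ltbp3 are printed because these were the 3 genes called higher with ESW against both Control and CW in all 17 alternative analyses. Each window runs 5′ to 3′ on the strand of the gene, from 250 bases before the start to 50 after it, in the assembly GRCr8. Capitals mark matches, on either strand, to 1 of 5 short motifs: the SMAD box CAGAC, the SP1 and KLF box GGGCGG, the AP-1 site TGANTCA, the antioxidant response core TGACNNNGC and the TATA box TATAAA.
Tgfb1 (chr1:90324062-90324361, plus strand): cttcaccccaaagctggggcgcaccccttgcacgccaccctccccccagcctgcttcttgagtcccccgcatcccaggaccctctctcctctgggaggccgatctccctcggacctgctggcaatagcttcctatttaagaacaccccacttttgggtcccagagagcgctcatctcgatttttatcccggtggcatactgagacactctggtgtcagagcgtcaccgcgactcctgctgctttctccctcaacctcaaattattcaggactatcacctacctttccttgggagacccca
Ltbp2 (chr6:110257249-110257548, minus strand): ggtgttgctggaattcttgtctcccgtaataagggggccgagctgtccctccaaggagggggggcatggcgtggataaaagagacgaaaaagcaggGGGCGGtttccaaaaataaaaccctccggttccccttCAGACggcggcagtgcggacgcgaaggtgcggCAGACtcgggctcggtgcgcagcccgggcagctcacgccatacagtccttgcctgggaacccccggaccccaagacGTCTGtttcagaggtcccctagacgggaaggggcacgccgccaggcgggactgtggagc
Ltbp3 (chr1:212458955-212459254, plus strand): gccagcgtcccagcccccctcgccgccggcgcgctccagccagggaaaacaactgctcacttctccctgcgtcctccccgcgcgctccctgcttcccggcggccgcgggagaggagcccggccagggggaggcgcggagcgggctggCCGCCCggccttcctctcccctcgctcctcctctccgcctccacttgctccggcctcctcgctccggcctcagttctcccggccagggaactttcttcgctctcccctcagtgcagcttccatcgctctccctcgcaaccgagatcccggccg

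The Tgfb1 window held none of the 5 motifs, the Ltbp2 window held 3 CAGAC boxes and 1 GGGCGG box, and the Ltbp3 window held 1 GGGCGG box, with no overlap between motifs in either. Over the 33469 RefSeq windows of this length, 50.1% held CAGAC, 33.1% GGGCGG, 7.33% TGANTCA, 12.1% TGACNNNGC and 14.2% TATAAA. All 10 genes had a window: CAGAC was in Ltbp1 and Ltbp2, GGGCGG in 6 genes (Tgfbr1, Tgfbr2, Tgfbr3, Ltbp2, Ltbp3 and Ltbp4), TGACNNNGC in Tgfbr2 and Ltbp4, and the other 2 motifs in none. The Ltbp3 window was the richest of the 3 in G and C at 73.0%, followed by Ltbp2 at 63.3% and Tgfb1 at 57.7%, and the median of all windows was 51.7%. A match of so few letters describes the sequence and is not a binding site.

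Per length of transcript, the cells carried far more ligand and LTBP RNA than receptor RNA. In TPM, the per-million transcript level corrected for length and so the scale on which genes can be compared, the order of the group means was Ltbp2, Tgfb3, Tgfb2, Tgfb1, Ltbp1, Ltbp4, Ltbp3, Tgfbr2, Tgfbr1 and Tgfbr3, and it was the same in ESW, CW and Control. Ltbp2 averaged 482 TPM in ESW, against 402 TPM in CW and 406 TPM in Control. At the other end, Tgfbr3 averaged 8.04 TPM in ESW, against 7.86 TPM in CW and 7.56 TPM in Control. Neighbours in this order had libraries that did not overlap, apart from Tgfb1 and Ltbp1 in CW and in Control, and Ltbp2 and Tgfb3 in Control. In ESW the Tgfb1 libraries, at 139.8 TPM or more, lay clear of the Ltbp1 libraries, at 137 TPM or less.

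**Figure D1:**
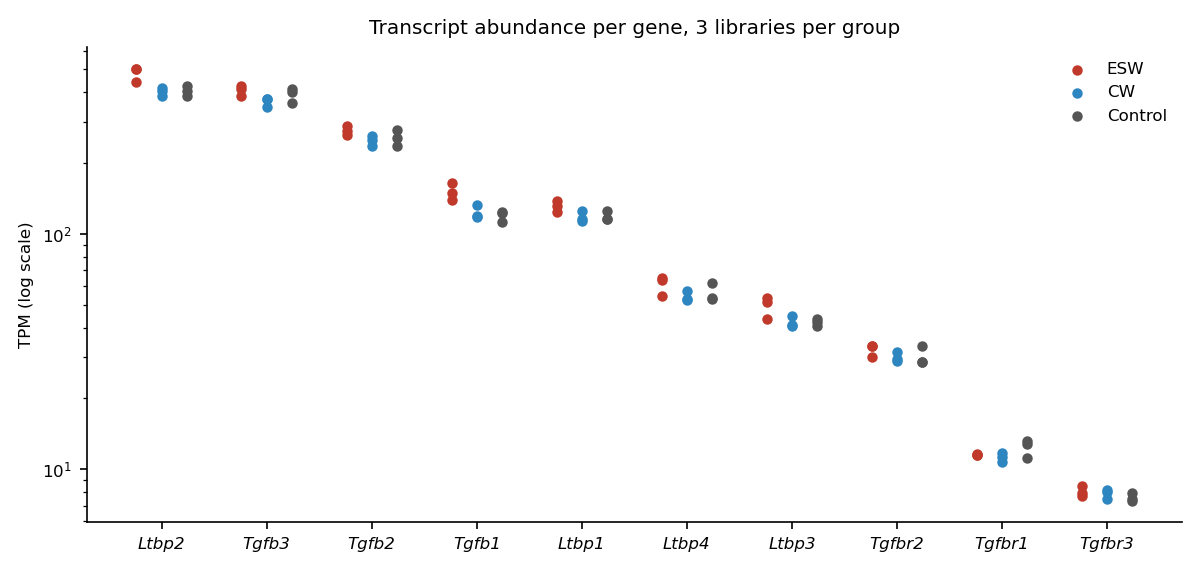
TPM of each gene on a log axis, with 1 point per library, 3 for each of ESW, CW and Control from left to right. Genes run from Ltbp2, at 482 TPM on average in ESW, to Tgfbr3 at 8.04 TPM.

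Tgfb3 made up 49.0% ± 0.52 of the TPM of the 3 ligands in ESW, 49.5% ± 0.93 in CW and 51.1% ± 1.05 in Control (SD, n = 3 each). The share of Tgfb1 was 18.1% ± 1.07 in ESW, 16.7% ± 0.76 in CW and 15.6% ± 1.27 in Control, and its ESW libraries began at 17.2% where those of CW ended at 17.3% and those of Control at 17.05%. Among the LTBPs, Ltbp2 held 66.6% ± 0.51 of the TPM in ESW, 65.2% ± 0.86 in CW and 65.2% ± 0.55 in Control. Tgfbr2 held 62.2% ± 1.41 of the receptor TPM in ESW, 61.0% ± 1.57 in CW and 60.3% ± 1.35 in Control. The balance within each class moved by a few percentage points at most.

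Among the ligands, Tgfb1 had the largest fold changes in both ESW comparisons. Tgfb1, the isoform best known for driving fibrosis, had 115, 118 and 113 CPM (after TMM scaling of the library totals) in ESW, against 97.8, 89.97 and 90.4 CPM in CW and 87.99, 91.8 and 83.96 CPM in Control. Every ESW library lay above every other library, and CW and Control overlapped. The log2 fold change was 0.39 (SE 0.04) for ESW against Control, 0.32 (SE 0.04) for ESW against CW and 0.08 (SE 0.04) for CW against Control. The same order held in TPM, with 139.8, 164 and 149 TPM in ESW, against 133, 119 and 118 TPM in CW and 123, 123 and 112 TPM in Control.

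Tgfb2, an isoform that needs the coreceptor Tgfbr3 for efficient binding to Tgfbr2, had 589.8, 597 and 626 CPM in ESW, against 558, 511 and 552 CPM in CW and 599, 522 and 559 CPM in Control. The ESW libraries lay above CW but overlapped Control, whose replicate 1 was the highest of its group. Its log2 fold change was 0.16 (SE 0.05) for ESW against CW and 0.11 (SE 0.05) for ESW against Control. Without Control replicate 1 the value against Control was 0.16, and the gene was then called. That was the 1 of 17 alternatives to call it against Control, and the same fit raised the calls over all genes from 1183 to 1544. Tgfb3, the most abundant ligand here, had 710.5, 728 and 767 CPM in ESW, against 665, 617 and 690.0 CPM in CW and 740.3, 660.4 and 739.5 CPM in Control. It too was above CW alone, with a log2 fold change of 0.16 (SE 0.05) against CW and 0.04 (SE 0.05) against Control. CW libraries averaged lower than Control for Tgfb3, at a log2 fold change of -0.12 (SE 0.05), and overlapped them.

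**Figure D2:**
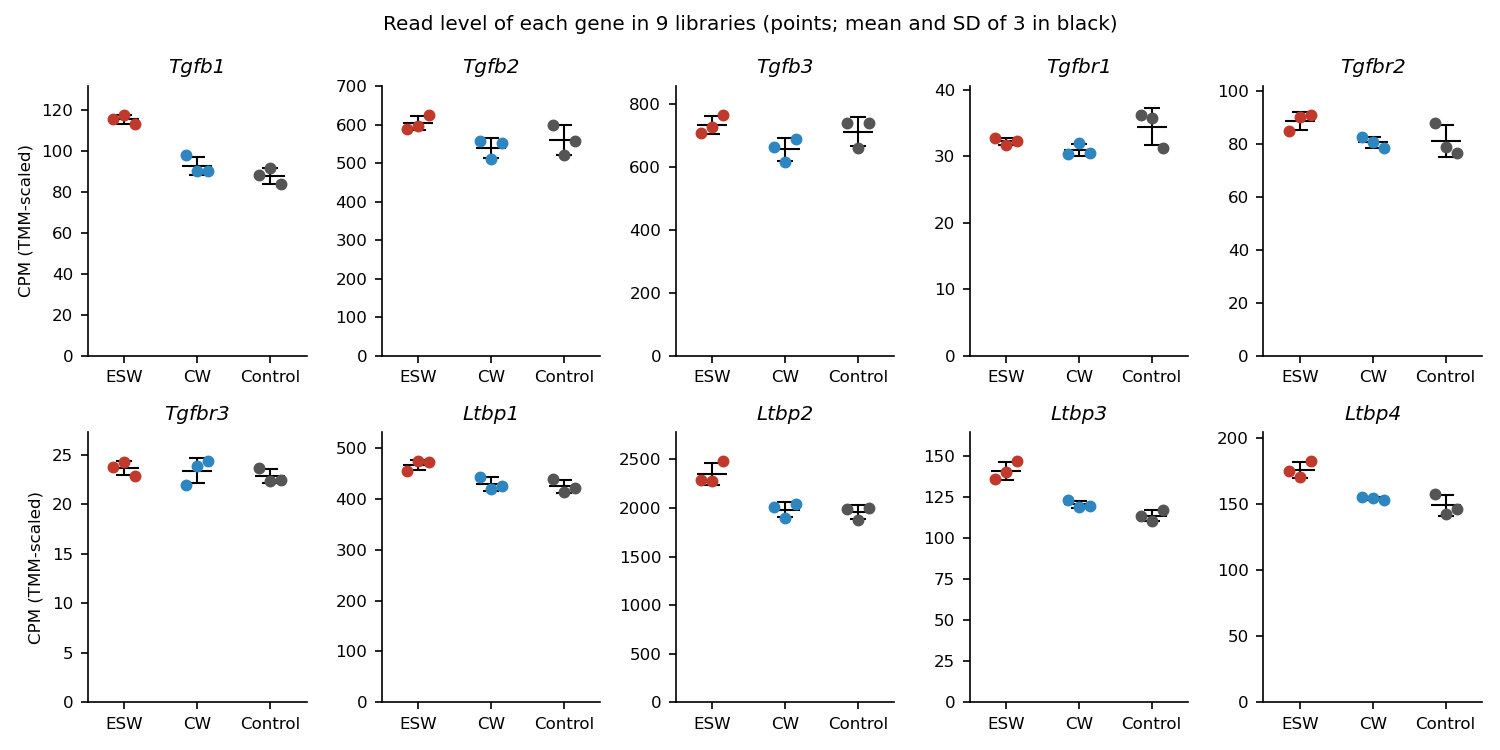
Read level in CPM (linear axis from 0) of each of the 10 genes, with 1 point per library and the mean and SD of the 3 libraries in black, for ESW, CW and Control from left to right. The ESW points of Tgfb1, Ltbp1, Ltbp2, Ltbp3 and Ltbp4 lie above all other points of the same gene.

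The receptors were not called in any comparison with all libraries in the fit. Tgfbr1, the type I receptor kinase, had 32.7, 31.7 and 32.3 CPM in ESW, against 30.3, 31.9 and 30.5 CPM in CW and 36.2, 35.8 and 31.2 CPM in Control. Its groups overlapped in every pair, and 2 of the Control libraries were the highest of the 9. It was the one member with a negative log2 fold change for ESW against Control, at -0.09 (SE 0.06), and it had 0.06 (SE 0.06) for ESW against CW. For CW against Control it had -0.15 (SE 0.06), the largest difference of the 10 genes in that comparison, and was not called. Tgfbr2, the type II receptor kinase that binds the ligand, had 84.8, 90.06 and 90.95 CPM in ESW, against 82.7, 80.9 and 78.4 CPM in CW and 87.97, 78.8 and 76.7 CPM in Control. ESW lay above CW for Tgfbr2 without being called (log2 fold change 0.14, SE 0.05), and overlapped Control through Control replicate 1 (0.13, SE 0.05). Without Control replicate 1 the value against Control was 0.19 for Tgfbr2, which was then called. Of 17 alternatives only this 1 called it against Control, and calls over all genes were then 1544 instead of 1183. The same fit was also the only 1 of 17 to call Tgfbr2 against CW, where calls over all genes were 1486 instead of 1197. Tgfbr3, betaglycan, ranged from 22.9 to 24.3 CPM in ESW, from 21.9 to 24.3 CPM in CW and from 22.3 to 23.6 CPM in Control. Its 3 groups overlapped and it was the steadiest of the 10 genes over the 9 libraries, with a log2 range of 0.15 against 0.49 for Tgfb1.

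The LTBPs had their highest read levels in ESW. Ltbp2, which lies on fibrillin microfibrils and, unlike its relatives, does not bind latent TGF-beta, had 2285, 2274 and 2478 CPM in ESW, against 2012, 1895 and 2042 CPM in CW and 1989, 1876 and 2002 CPM in Control. The lowest ESW library was above the highest of either other group, and CW and Control overlapped. The log2 fold change was 0.26 (SE 0.04) against Control and 0.24 (SE 0.04) against CW. In TPM the separation held, with 441, 501 and 504 TPM in ESW, against 417, 386 and 404 TPM in CW and 424, 386 and 407 TPM in Control.

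Ltbp3, which binds latent TGF-beta and promotes its secretion, had 136, 140.4 and 147 CPM in ESW, against 123, 119 and 119.6 CPM in CW and 114, 110.3 and 117 CPM in Control. The 3 groups did not overlap: ESW was highest and CW lay above Control, although CW against Control was not called (log2 fold change 0.08, SE 0.04). The log2 fold change of ESW was 0.31 (SE 0.04) against Control and 0.23 (SE 0.04) against CW. Ltbp4, which binds latent TGF-beta weakly and guides elastic fibre assembly, had 175, 170.4 and 183 CPM in ESW, against 156, 155 and 153 CPM in CW and 158, 143 and 147 CPM in Control. ESW was again above both groups, by a log2 fold change of 0.24 (SE 0.04) against Control and 0.19 (SE 0.04) against CW. Ltbp1, the first described carrier of the latent complex, had 454, 473 and 471 CPM in ESW, against 444, 418 and 425 CPM in CW and 438, 414 and 420.2 CPM in Control. ESW was above both, and the log2 fold changes of 0.14 (SE 0.04) against Control and 0.12 (SE 0.04) against CW were the smallest of the 4 LTBPs. Ltbp1 was not called against CW, but 7 of 17 alternatives called it there. DESeq2, limma-voom and the fit without Control replicate 1 were among those.

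For Ltbp1, Ltbp3 and Ltbp4 the separation seen in CPM did not hold in TPM. Ltbp1 had 124, 137 and 131 TPM in ESW, against 125, 116 and 113.5 TPM in CW and 125, 115 and 116 TPM in Control. Ltbp3 had 43.4, 53.5 and 51.3 TPM in ESW, against 44.9, 41.1 and 40.65 TPM in CW and 43.6, 40.6 and 42.3 TPM in Control. Ltbp4 had 54.4, 65.0 and 63.6 TPM in ESW, against 56.9, 52.9 and 52.1 TPM in CW and 61.8, 53.1 and 53.4 TPM in Control. In all 3 genes ESW replicate 1 fell among the CW and Control libraries. The effective length by which reads are divided in TPM, averaged over the transcripts of a gene, also differed between libraries: for Ltbp4 it was 5160.5, 4421 and 4768 bases in ESW, 4652 to 4855 bases in CW and 4372 to 4553 bases in Control. With these lengths as offsets in the fit, the log2 fold change of Ltbp4 was 0.11 for ESW against Control, which was then not called. That of Ltbp3 was 0.22 for ESW against Control and that of Tgfb1 was 0.33, and both stayed called. Summed over the 4 LTBPs, the libraries held 663, 756 and 750 TPM in ESW, against 643, 596 and 611 TPM in CW and 655, 595 and 618 TPM in Control, so that ESW replicate 1 was the nearest to the other groups here too.

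**Figure D3:**
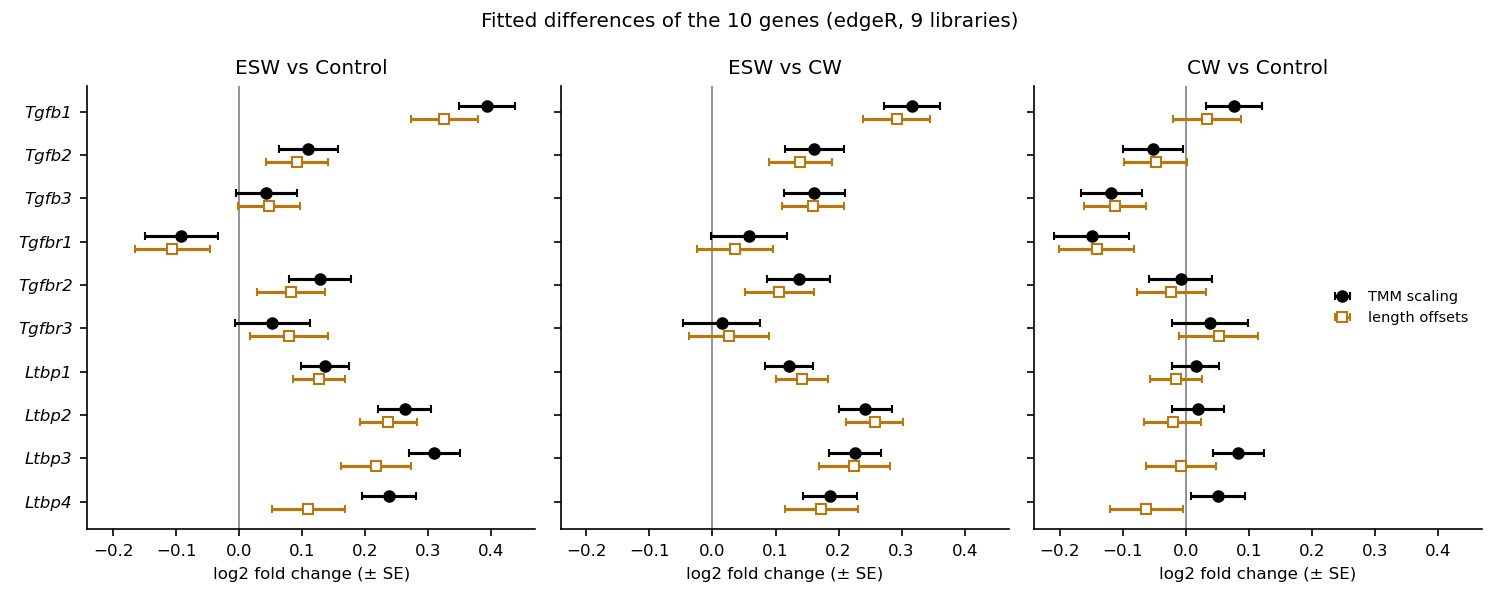
Log2 fold changes with their standard errors: ESW set against Control (left panel), ESW set against CW (middle) and CW set against Control (right). Filled circles are the fit with TMM scaling and open squares the fit with offsets for transcript length. For ESW against Control the largest values are those of Tgfb1 at 0.39 and Ltbp3 at 0.31, and Ltbp4 moves from 0.24 to 0.11 with the offsets.

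A gene was called when its edgeR quasi-likelihood p, adjusted by Benjamini-Hochberg over all 14706 genes, was under 0.05. For ESW against Control 5 of the 10 genes were called higher (Tgfb1, Ltbp1, Ltbp2, Ltbp3 and Ltbp4) and 0 lower, where 4.76% of all genes were called higher and 3.28% lower. For ESW against CW 6 were called higher (Tgfb1, Tgfb2, Tgfb3, Ltbp2, Ltbp3 and Ltbp4) and 0 lower, where 4.15% of all genes were called higher and 3.99% lower. Nothing is read from these member counts, because the calls had entered the choice of the family. The median log2 fold change of the 10 genes was 0.13 for ESW against Control and 0.16 for ESW against CW, and that of all genes was -0.0097 and -0.0018. Both comparisons use the same ESW libraries, so they are not independent of each other. Leaving out a single library ended the call of Ltbp1 against Control (ESW replicate 2 or 3, or Control replicate 2 or 3; log2 fold change 0.12 to 0.16 over all alternatives). It also ended, against CW, the calls of Tgfb2 (ESW or CW replicate 2 or 3; 0.12 to 0.19), Tgfb3 (ESW replicate 2 or 3 or any CW replicate; 0.12 to 0.20) and Ltbp4 (ESW replicate 3 or CW replicate 2 or 3; 0.16 to 0.21). For CW against Control 0 of the 10 were called, where 0.0272% of all genes were called higher and 0.15% lower. In that comparison 1452 genes had an unadjusted edgeR p under 0.05, DESeq2 and limma-voom also called 0 of the 10, and the median log2 fold change of the 10 was 0.02.

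Which transcripts of a gene were used had no part in the choice and could be tested. RefSeq lists 1 transcript for Tgfb1, 2 each for Tgfb2, Tgfb3, Tgfbr1 and Tgfbr2, 4 for Tgfbr3 and Ltbp4, 10 for Ltbp1, 6 for Ltbp2 and 8 for Ltbp3. Usage was tested with edgeR diffSpliceDGE in 7266 genes, among them 8 of the 10 (Tgfb1 has a single transcript, and in Ltbp4 a single one passed the minimum share). Of the 8, 0 were called for ESW against Control (0.358% of all genes tested), 0 for ESW against CW (0.729%) and 0 for CW against Control (0.372%). At an unadjusted p under 0.05 there were 0, 0 and 1 of the 8 in the same 3 comparisons, beside 747, 861 and 649 of all 7266 genes, so 0 or 1 of 8 is no departure from the rest, and limma diffSplice also called 0. The single one was Ltbp1 for CW against Control, with an edgeR adjusted p of 0.556 and an unadjusted value of 0.0488 in the model over all genes.

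Tgfb3 had transcript shares in which the 2 waters lay on the same side of Control. Its 2619-base transcript took 49.2%, 49.4% and 49.5% of the gene's TPM in ESW, 48.7%, 51.7% and 50.2% in CW, and 45.3%, 47.4% and 47.4% in Control. All 6 water-treated libraries were above all 3 Control libraries for this transcript, but the diffSpliceDGE adjusted p was 0.702 for ESW against Control and 0.577 for CW against Control. How many of all transcripts separate in this way was not computed, so nothing is read from the separation. In Ltbp1, a gene with 6 transcripts above 10 reads on average, the 5251-base transcript took 33.6%, 36.1% and 33.9% in ESW, 33.9%, 31.2% and 36.4% in CW, and 45.4%, 41.9% and 35.8% in Control. ESW and CW overlapped Control there through Control replicate 3. The 5724-base transcript of Tgfbr1 varied from 68.2% to 77.8% in ESW, from 55.9% to 92.1% in CW and from 64.9% to 66.6% in Control, so its CW libraries differed more among themselves than the groups did. In Tgfbr3, ESW replicate 2 had 708 reads on the 5538-base transcript and 0 on the 5503-base one, and in the other 8 libraries the 5538-base transcript had 0. These transcripts are close in length, and the total of the gene in ESW replicate 2, 24.3 CPM, was within the range of the other libraries.

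**Figure D4:**
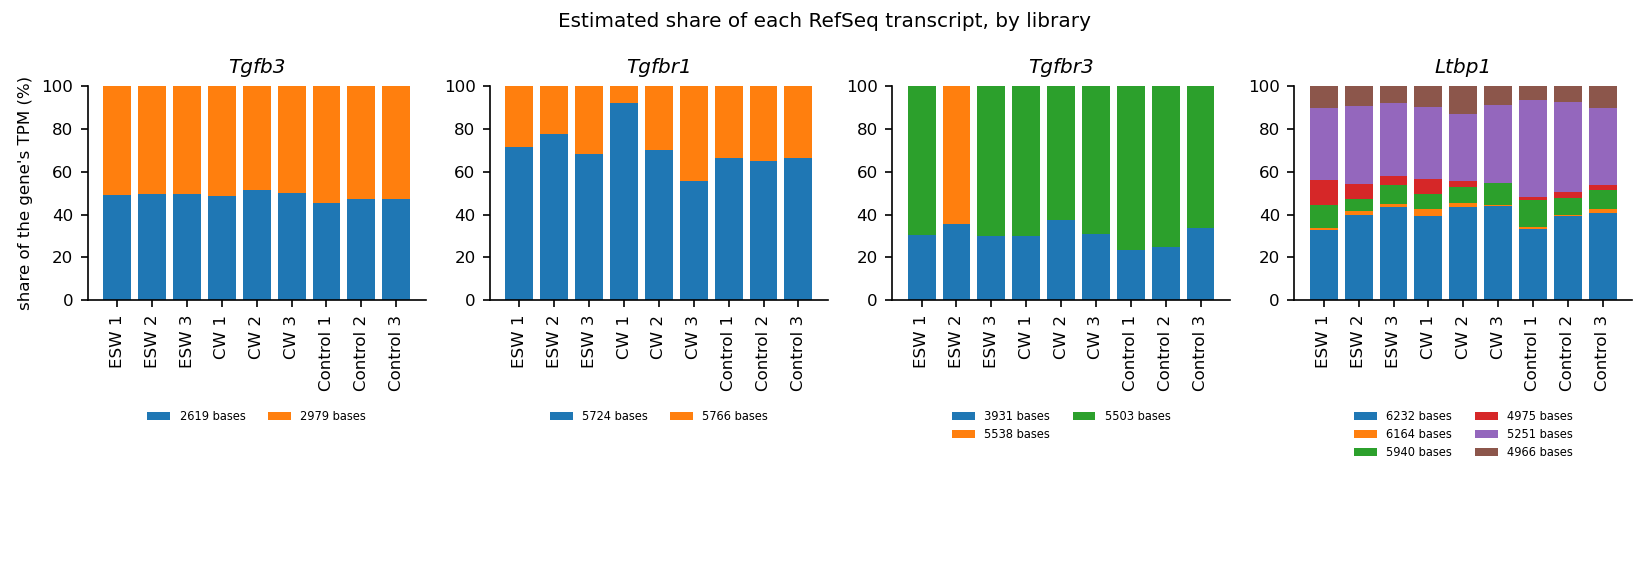
Stacked bars give the percentage of a gene's TPM assigned to each RefSeq transcript with at least 10 reads on average, named by length, for the 9 libraries (ESW, CW and Control from left to right). Tgfb3 is nearly evenly split in all libraries, and in Tgfbr3 the bar of ESW replicate 2 holds the 5538-base transcript in place of the 5503-base one.

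The rest of the pathway was covered by 8 lists of 128 genes, 108 of which passed the filter on low counts. For ESW against Control 21 of the 108 rose and 0 fell by the edgeR test, which is 19.4% called, where 4.76% of all genes rose and 3.28% fell, with a median log2 fold change of 0.07. For ESW against CW 26 rose and 0 fell, or 24.1%, where 4.15% of all genes rose and 3.99% fell, with a median of 0.09. For CW against Control 0 were called and the median was -0.01. The genes on the lists were picked with earlier results of these data known, collagens and elastin among them, so the shares are descriptions and not independent evidence of direction. The count against Control was 13 without ESW replicate 3 or Control replicate 2, and that against CW was 15 without ESW replicate 2, 9 without ESW replicate 3, and 11 and 14 when CW replicate 2 or 3 was dropped. In each ESW comparison the calls of Furin, Pmepa1, Eln, Col1a1, Tgfb1i1 and Cdkn1a, among the genes named below, held whichever library was left out. Those of Emilin1, Thbs1, Ski, Smad6, Fstl3, Fst, Bgn and Ccn2 were lost without 1 or more of the libraries in each, as were those of Tgfbi against Control and of Itgb5, Eng, Gdf11 and Bmpr2 against CW. With offsets for transcript length 14 pathway genes were called against Control and 19 against CW. Of the genes named, Furin, Emilin1, Ski, Smad6, Fstl3, Fst, Ccn2 and Tgfbi were then not called against Control, nor were Eng, Ski, Smad6, Fst, Ccn2 and Bmpr2 against CW.

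Of 17 genes of the latent complex and its activation, 5 rose against Control, where 4.76% of all genes rose, and 5 against CW, where 4.15% did. Furin, the protease that cuts the precursor, had 256, 251 and 256 CPM in ESW, against 219, 217 and 226 CPM in CW and 236, 215 and 218 CPM in Control. It was above both groups, by a log2 fold change of 0.19 (SE 0.04, edgeR adjusted p = 0.0058) against Control and 0.21 (SE 0.04, adjusted p = 0.0048) against CW. With the transcript length offsets its value against Control was 0.14 and was not called. Thbs1, thrombospondin 1, which can activate latent TGF-beta, rose by 0.17 (edgeR adjusted p = 0.011) against Control and 0.19 (adjusted p = 0.0075) against CW. Itgb5, an integrin beta chain that pairs with alpha v, rose by 0.20 (edgeR adjusted p = 0.0018) and 0.16 (adjusted p = 0.0083) in the same order. Emilin1, a matrix protein that restrains precursor processing, rose by 0.16 in each (edgeR adjusted p = 0.020 and 0.022). Mmp2, a gelatinase, was higher against Control by 0.89 (SE 0.18, edgeR adjusted p = 0.0051), and DESeq2 did not call it. Its levels were low, at 4.01 ± 0.48 CPM in ESW, 2.94 ± 0.44 CPM in CW and 2.19 ± 0.51 CPM in Control (SD, n = 3 each). Against CW it had 0.47 and was not called (edgeR adjusted p = 0.111). The CW libraries also lay above those of Control, by 0.42, without being called (edgeR adjusted p = 0.458). Fbn1, the fibrillin to which LTBPs attach, had 0.12 (edgeR adjusted p = 0.141) against Control, and Itgav, the alpha v chain, had 0.07 (adjusted p = 0.464).

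Of 9 coreceptors and receptor regulators 2 rose in each ESW comparison, beside 4.76% of all genes against Control and 4.15% against CW, a small count on which to read the list. Pmepa1, a TGF-beta-induced membrane protein that keeps Smad2 and Smad3 from the receptor, had 269, 267 and 277 CPM in ESW, against 234, 213 and 217 CPM in CW and 246, 220.2 and 215 CPM in Control. Its ESW libraries were above all others, and the log2 fold change was 0.25 (SE 0.05, edgeR adjusted p = 0.0033) against Control and 0.29 (SE 0.05, adjusted p = 0.0019) against CW. Eng, endoglin, rose by 0.25 (edgeR adjusted p = 0.0033) against Control and 0.16 (adjusted p = 0.040) against CW.

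Of 15 Smads and their regulators 2 rose in each ESW comparison, which is 13.3%. Among all genes 4.76% rose against Control and 4.15% against CW, and 2 genes are a small count on which to read the list. The corepressor Ski rose by 0.18 against Control and against CW (edgeR adjusted p = 0.011 and 0.013), and the inhibitory Smad6 by 0.26 and 0.20 (adjusted p = 0.011 and 0.043). The Smads that carry the TGF-beta signal were not called: Smad2 had a log2 fold change of -0.13 (SE 0.05, edgeR adjusted p = 0.162), Smad3 of 0.12 (SE 0.05, adjusted p = 0.146) and Smad4 of 0.03 (SE 0.04, adjusted p = 0.686) against Control. Smad7, an inhibitory Smad that TGF-beta induces, had 0.02 (SE 0.05, edgeR adjusted p = 0.848) against Control and 0.09 (adjusted p = 0.306) against CW. Of the 12 genes of the Smad-independent branch 0 were called in either ESW comparison; at the background of 4.76% higher and 3.28% lower against Control, and 4.15% and 3.99% against CW, few or none of 12 would be, so nothing is read from it. Ski and Smad6 lost their calls in both comparisons with the transcript length offsets.

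Of 9 extracellular antagonists 3 rose against Control and 4 against CW, where 4.76% and 4.15% of all genes rose. Fstl3, which binds activins, rose by 0.21 and 0.25 (edgeR adjusted p = 0.021 and 0.010), Fst, follistatin, by 0.15 in each (adjusted p = 0.047 and 0.041), and Bgn, a proteoglycan that binds TGF-beta, by 0.16 and 0.21 (adjusted p = 0.039 and 0.011). Of 8 other ligands of the superfamily 0 were called against Control and 1 rose against CW, Gdf11 by 0.17 (edgeR adjusted p = 0.033), and of 8 other receptors 0 and 1, Bmpr2 by 0.19 against CW (adjusted p = 0.024). For these other ligands and receptors, counts of 0 or 1 of 8 are too small to be read beside those background shares. Bmpr2 had -0.02 against Control, with 134 ± 4.79 CPM in ESW, 118 ± 6.51 CPM in CW and 136 ± 8.04 CPM in Control (SD, n = 3 each).

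Of 30 genes that respond to TGF-beta in many cell types, 9 rose against Control and 11 against CW, where 4.76% and 4.15% of all genes rose. Eln, elastin, had 462, 499 and 485 CPM in ESW, against 402, 351 and 372 CPM in CW and 419, 373 and 386 CPM in Control. All ESW libraries were above the rest, by a log2 fold change of 0.30 (SE 0.05, edgeR adjusted p = 0.0014) against Control and 0.36 (SE 0.05, adjusted p = 0.00070) against CW. Col1a1, a chain of type I collagen, rose by 0.29 and 0.24 (edgeR adjusted p = 9.5e-05 and 0.00083), Tgfb1i1, the focal adhesion protein Hic-5, by 0.26 and 0.19 (adjusted p = 0.000465 and 0.0044), and Cdkn1a, the cell cycle inhibitor p21, by 0.30 and 0.26 (adjusted p = 0.00086 and 0.0035). Ccn2, connective tissue growth factor, rose by 0.14 and 0.16 (edgeR adjusted p = 0.046 and 0.025), and Tgfbi rose by 0.26 against Control (adjusted p = 0.021) and had 0.21 against CW (adjusted p = 0.063). The summed fibroblast markers, which include Col1a1 and Col3a1 and are mostly those collagens, ran from 55883 to 57964 CPM in ESW, from 47412 to 49709 CPM in CW and from 46339 to 49485 CPM in Control, and their part in these results was not tested.

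**Figure D5:**
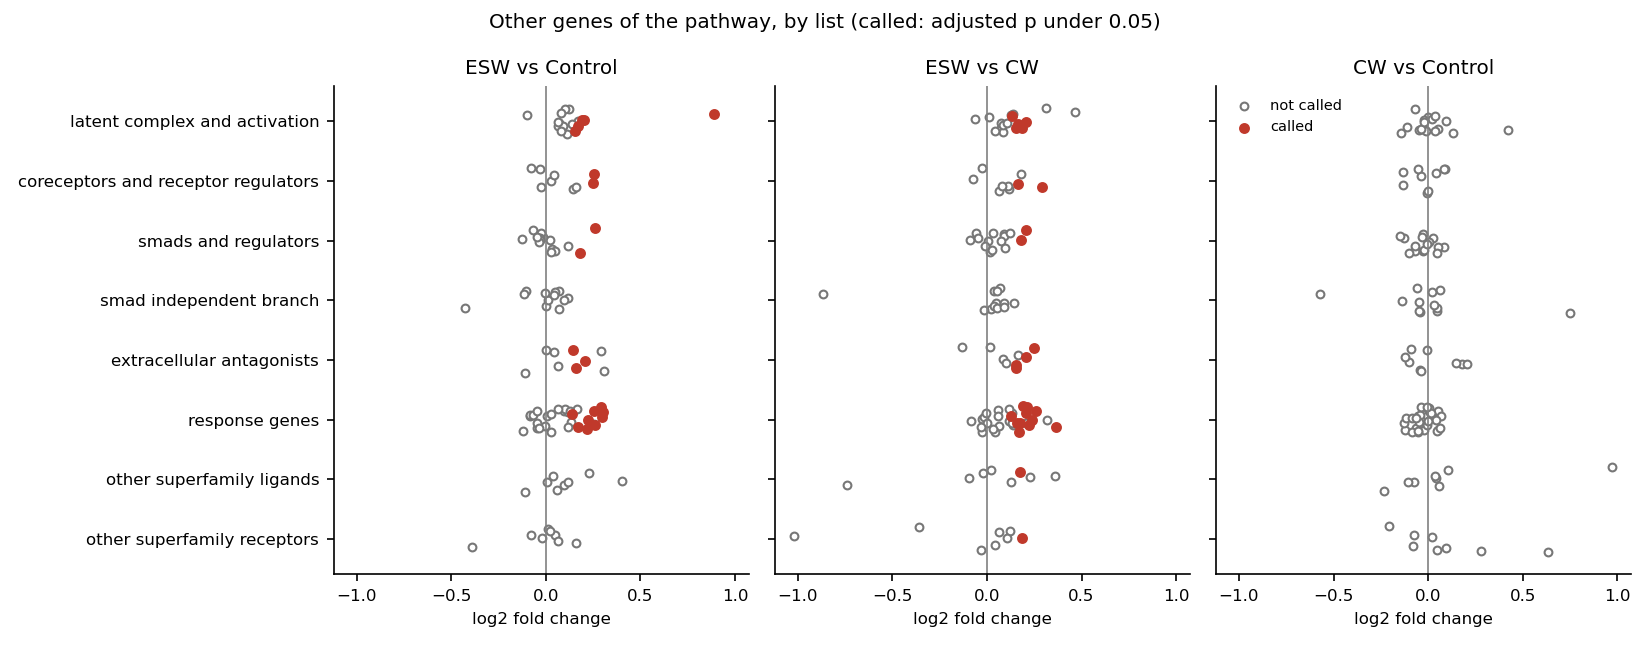
Log2 fold change of each tested gene on the 8 pathway lists (1 point per gene, spread vertically at random within its list), with ESW set against Control in the left panel, ESW set against CW in the middle and CW set against Control on the right. Filled points are called genes: 21, 26 and 0 of 108, all on the positive side.

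Among the genes compared, the profiles over the 9 libraries most like that of Tgfb1 were those of Clu, Igfbp4, Gaa, Sod3 and Cdkn1a. Likeness was the root mean square difference of log2 CPM, each gene centred on its own mean. The 11359 genes compared averaged 1 CPM or more, and left out the family and genes with systematic names (LOC, RGD or AABR). The median likeness was 0.192. Likeness was 0.041 for Clu, the chaperone clusterin, 0.045 for Igfbp4, an insulin-like growth factor binding protein, and 0.046 for Gaa, lysosomal acid glucosidase. It was 0.048 for both Sod3, the extracellular superoxide dismutase, and Cdkn1a. Clu had 92.6, 89.9 and 89.9 CPM in ESW, against 77.0, 76.1 and 75.1 CPM in CW and 70.8, 73.6 and 65.9 CPM in Control. Within the family the nearest to Tgfb1 were Ltbp3 at 0.077, Ltbp2 at 0.094 and Ltbp4 at 0.097, and the farthest was Tgfbr1 at 0.207.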

How the data were processed

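RNA from 9 H9c2(2-1) samples was sequenced (NovaSeq X Plus, per the labels' protocols). Salmon 1.10.3 and DESeq2 appear in the submitters' processing notes. Per the file headers, the deposited table of each library gives, for 114122 RefSeq transcripts, estimated counts of reads, TPM, length and effective length. The deposited estimated counts are fractional because Salmon divides reads among similar transcripts; the deposited TPM are those counts divided by effective length and scaled per library. The effective length, deposited in bases, is a transcript's length as Salmon adjusted it for that library, and is another unit than the reads. The authors' genome build, annotation release and bias settings are not given in the sources used here. Transcripts were paired with gene symbols through a RefSeq table of GRCr8, by accession, all 114122 of them.

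Counts were summed per gene and rounded. One edgeR 4.0.16 quasi-likelihood model (R 4.3.3, TMM, filterByExpr, 6 residual degrees of freedom) covered the 3 groups. P-values were adjusted by Benjamini-Hochberg over 14706 genes, with a threshold of 0.05. The common biological coefficient of variation was 4.84%. Transcript usage was tested with diffSpliceDGE on transcripts with a mean share of at least 5% of the gene. Alternatives were other scaling, filters, DESeq2 1.42.0, limma 3.58.1 (voom), transcript length offsets, a replicate block, fits of 2 groups and leaving out each library. The members and lists were chosen with earlier results of these data known. Named pathway genes were, per comparison and list, up to 4 called genes with the smallest p, and always Smad2, Smad3, Smad4, Smad7, Ccn2, Tgfbi, Thbs1, Fbn1 and Itgav. Some genes that the rule names are not reported here. Promoter windows were taken from RefSeq (GRCr8), with 1 start per gene.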

Additional observations from a re-analysis of the deposited data

How the results depend on the processing

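Of the 10 genes, Tgfb1, Ltbp2 and Ltbp3 kept their calls against Control and against CW in all 17 alternatives, and no called value changed sign. The alternatives reuse the same 9 libraries, and earlier calls of Tgfb1 and Ltbp2 had entered the choice of the family. They show how calls depend on the processing and are not further evidence for a difference. With offsets for average transcript length 3 members were called instead of 5 against Control and 3 instead of 6 against CW, which are those 3 genes in each, and all genes called fell to 440 from 1183 against Control. Pathway genes called were then 14 against Control and 19 against CW. Leaving out each library gave 4 to 7 members against Control (7 without Control replicate 1) and 3 to 8 against CW (3 without ESW replicate 3, CW replicate 2 or CW replicate 3). Pathway genes called ran from 13 to 24 against Control (13 without ESW replicate 3 or Control replicate 2) and from 9 to 28 against CW (9 without ESW replicate 3, 15 without ESW replicate 2, 11 and 14 when CW replicate 2 or 3 was dropped). All genes called ran from 397 to 1544 against Control and from 314 to 1486 against CW, the lowest without ESW replicate 3 in both. Against Control they were also 534 and 590 when Control replicate 2 or 3 was dropped, and against CW 571 without ESW replicate 2, and 407 and 474 when CW replicate 2 or 3 was dropped. For CW against Control they ran from 5 (without CW replicate 3) to 51 (without Control replicate 3). For CW against Control, calls over all genes were 26 as reported, 273 with no filter on low counts, 80 with DESeq2, 2 with the length offsets and 16 with only these groups fitted, and pathway genes called were 3, all lower, with no filter and with DESeq2. The cause of these shifts was not tested. Transcript usage gave 0 members in every alternative run. No pairing by replicate number was visible. The 9 same-number correlations of deviations ran from -0.118 to 0.040 and those between other numbers from -0.041 to 0.087. Only 1 of 9 libraries correlated best with its own number. Deviations were taken from means of 3 libraries, so low correlations cannot tell whether same-number libraries were prepared together. With the replicate number as a block, members called were 5 against Control, 6 against CW and 0 for CW against Control, pathway genes 21, 23 and 0, and all genes 971, 949 and 25. Transcript shares rest on Salmon's division of reads among transcripts, as in Tgfbr3, and the labels do not show whether the libraries are separate cultures.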
